A study of Mus musculus with 4 samples.

Results

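Obox, Tdpoz and Zscan4 are 3 mouse gene families of the oocyte and the early embryo, and their transcripts were described here in morula and blastocyst wells together with the single genes AF067063 and Bex6. The members are the 71 rows of the count matrices, of 55453, whose symbol starts with Obox, Tdpoz or Zscan4 or is AF067063 or Bex6. The members with at least 10 counts over all 384 wells, 11 of 71, are described one by one. That minimum uses the measured counts, so which members passed it is a description and not a result. Of the 71, 50 had 0 counts and 10 had 1 to 9.

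The mouse embryos had received a morpholino, which is an oligonucleotide that pairs with an RNA and blocks its translation or its splicing. The NKX1-2 morpholino, against a homeobox transcription factor of that name, was in the odd wells of each plate, and the control morpholino was in the even wells. Each stage had 2 plates, called replicates 1 and 2 in the labels, with 48 wells per plate and morpholino. The sources used here do not give the strain, the age in days, the morpholino dose or which wells came from the same embryo. The labels call the source single cells and the samples embryo, morula or blastocyst, so fewer cells of a kind and less RNA per cell cannot be told apart in a sum over wells.

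The Obox genes encode homeobox proteins of the oocyte and early embryo, and in the mouse several of them take part in switching on the embryonic genome. Zscan4 genes encode zinc finger and SCAN domain proteins that mark the mouse 2-cell embryo and a rare state of embryonic stem cells. Tdpoz genes encode proteins with a TRAF domain and a POZ domain, related to the ubiquitin ligase adaptor Spop. Bex6 belongs to the brain expressed gene family. AF067063 is named after a cDNA sequence. Members of these families arose by duplication, so reads can be placed on more than 1 of them.

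How far that sequence sharing goes is shown by 60 bases of the homeobox of 4 Obox genes and a pseudogene, since Obox6 holds most of the counts described below. The transcripts are those of GENCODE release M21 on GRCm38, all 5′ to 3′ in the sense of the gene, and capitals mark bases that differ from Obox6. The windows of the genes span an intron, so their coordinates are wider than 60 bases. Obox6 is at chr7:15833912-15834400 on the minus strand, Obox8 at chr7:14332055-14332640 on the minus strand, Obox5 at chr7:15758058-15758577 on the plus strand and Obox1 at chr7:15555684-15556189 on the plus strand. Obox6-ps1 is at chr17:61361121-61361180 on the plus strand.
Obox6: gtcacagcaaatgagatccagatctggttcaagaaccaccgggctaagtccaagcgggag
Obox8: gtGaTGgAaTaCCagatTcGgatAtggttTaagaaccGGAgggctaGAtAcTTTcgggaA
Obox5: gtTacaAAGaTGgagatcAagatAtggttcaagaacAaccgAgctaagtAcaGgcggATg
Obox1: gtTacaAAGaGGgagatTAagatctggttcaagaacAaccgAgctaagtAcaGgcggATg
Obox6-ps1: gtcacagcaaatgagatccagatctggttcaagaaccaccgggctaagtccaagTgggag
Over this window Obox8 was 65% identical to Obox6, Obox5 and Obox1 were 76.7% identical and Obox6-ps1 was 98.3% identical. Over whole genes, 0% of the 31-base stretches of Obox8 occurred in another annotated gene, against 14.6% for Obox6, 13.5% being shared with Obox6-ps1, and against 38.7% for Obox5 and 71.2% for Obox1. Obox8 and Bex6, also at 0%, were the described members free of such stretches.

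AF067063 and the Tdpoz genes share far more, and the first 60 bases of their coding sequences show it. AF067063 lies on the minus strand at chr13:119828599-119828658 and Gm21731 on the plus strand at chr13:120240670-120240729. Tdpoz1, Gm9117 and Tdpoz2 lie on the minus strand at chr3:93671416-93671475, chr3:93938712-93938771 and chr3:93652604-93652663, and Tdpoz4 on the plus strand at chr3:93796398-93796457. Capitals mark differences from AF067063 in the first pair and from Tdpoz1 in the rest.
AF067063: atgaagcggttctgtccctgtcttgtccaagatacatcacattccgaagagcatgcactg
Gm21731: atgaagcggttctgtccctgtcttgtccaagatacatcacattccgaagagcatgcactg
Tdpoz1: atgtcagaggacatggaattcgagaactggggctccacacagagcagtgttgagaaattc
Gm9117: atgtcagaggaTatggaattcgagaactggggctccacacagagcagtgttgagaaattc
Tdpoz2: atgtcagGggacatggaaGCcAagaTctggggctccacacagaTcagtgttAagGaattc
Tdpoz4: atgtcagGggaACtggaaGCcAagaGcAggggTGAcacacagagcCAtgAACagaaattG
The AF067063 and Gm21731 stretches were identical, and 80.7% of all 31-base stretches of AF067063 occurred in Gm21731. Of the 31-base stretches of Tdpoz2, Tdpoz4 and Tdpoz1, 66.3%, 64.6% and 58.4% occurred in other genes, and 5.65%, 5.91% and 6.76% in another member. The sources used here do not give how reads with several placements were counted, so levels of these genes are uncertain between a member and its copies.

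Levels, shares and tests are from the 368 of 384 wells with at least 2000 detected genes, and totals over all 384 wells are named as such. Counts of the 368 wells were summed per plate and morpholino into 8 sums of 1084312 to 2398605 counts. CPM are counts scaled to 1000000 counts of the sum or the well. NKX1-2 wells were deeper than control wells in every plate, with medians per well of 30453 against 22391 counts in blastocyst replicate 1, 37602 against 31360 in blastocyst replicate 2, 47763.5 against 44201 in morula replicate 1 and 48648 against 41251 in morula replicate 2. The 96 barcodes were the same in all 4 plates. Nkx1-2 itself had 0 counts in every sum, which allows up to 2.12 CPM and 1.78 CPM in NKX1-2 wells and 2.77 CPM and 2.05 CPM in control wells of the blastocyst plates, and at most 1.44 CPM in a morula sum. Of 8 listed trophectoderm markers, Cdx2, Gata3, Krt8, Krt18, Lrp2, Dab2 and Eomes had a count in every sum. Elf5 had 0 to 2 counts in a sum and Eomes 1 to 9. Cdx2 had 3 to 16 counts in morula sums. Of 8 listed cumulus cell genes Has2, Inha and Fshr were at 0 in every sum, and Amh, Foxl2, Inhba and Cyp19a1 had at most 2 counts in a sum. The eighth, Amhr2, a receptor of anti-Müllerian hormone, had 27 and 33 counts in NKX1-2 and 12 and 26 in control blastocyst wells, and 223 and 221 in NKX1-2 and 188 and 159 in control morula wells. The summed level of the list was 19.1 and 19.6 CPM in NKX1-2 and 12.0 and 21.2 CPM in control blastocyst wells, and 94.4 and 92.6 CPM in NKX1-2 and 87.6 and 77.3 CPM in control morula wells. Amhr2 was lower in the blastocyst by edgeR (log2 fold change -1.98, adjusted p = 3.12e-06 in NKX1-2 and -2.16, adjusted p = 4.99e-06 in control wells), in the direction of Obox6, and its part in the results was not tested.

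Over all 384 wells the members together held 15028 counts, or 0.102% of all counts. The 55 Obox rows held 79.1% of these, and Obox6 alone 72.9%. In the same wells Obox6 had 10960 counts, Bex6 1987, AF067063 826 and Obox8 799. Tdpoz2 had 121, Tdpoz4 103, Tdpoz1 88, Obox6-ps1 45, Obox3-ps7 39, Obox5 17 and Obox1 12. Obox3-ps7, Obox5 and Obox1 were just inside the minimum of 10 counts, and Tdpoz3 with 9, Obox2 with 7 and Obox7 with 4 counts were just outside it. Of the 55 Obox rows, 48 are named as pseudogenes, 39 of them copies of Obox4. The 9 Zscan4 rows had 2 counts over all 384 wells, 1 each in Zscan4a and Zscan4d. The count of Zscan4d was in a well that was left out. The other 7 rows had 0, which allows up to 0.204 CPM per row over all wells if their reads could be counted. Of the sequence stretches of these 7 rows, 63.8% (Zscan4-ps1) to 95.2% (Zscan4b) occurred in other genes. Among Obox4 copies that share ran from 0% (Obox4-ps2) to 100% (Obox4-ps19). How reads with several placements were counted is not given, so 0 counts of such rows do not show absence.

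**Figure D1:**
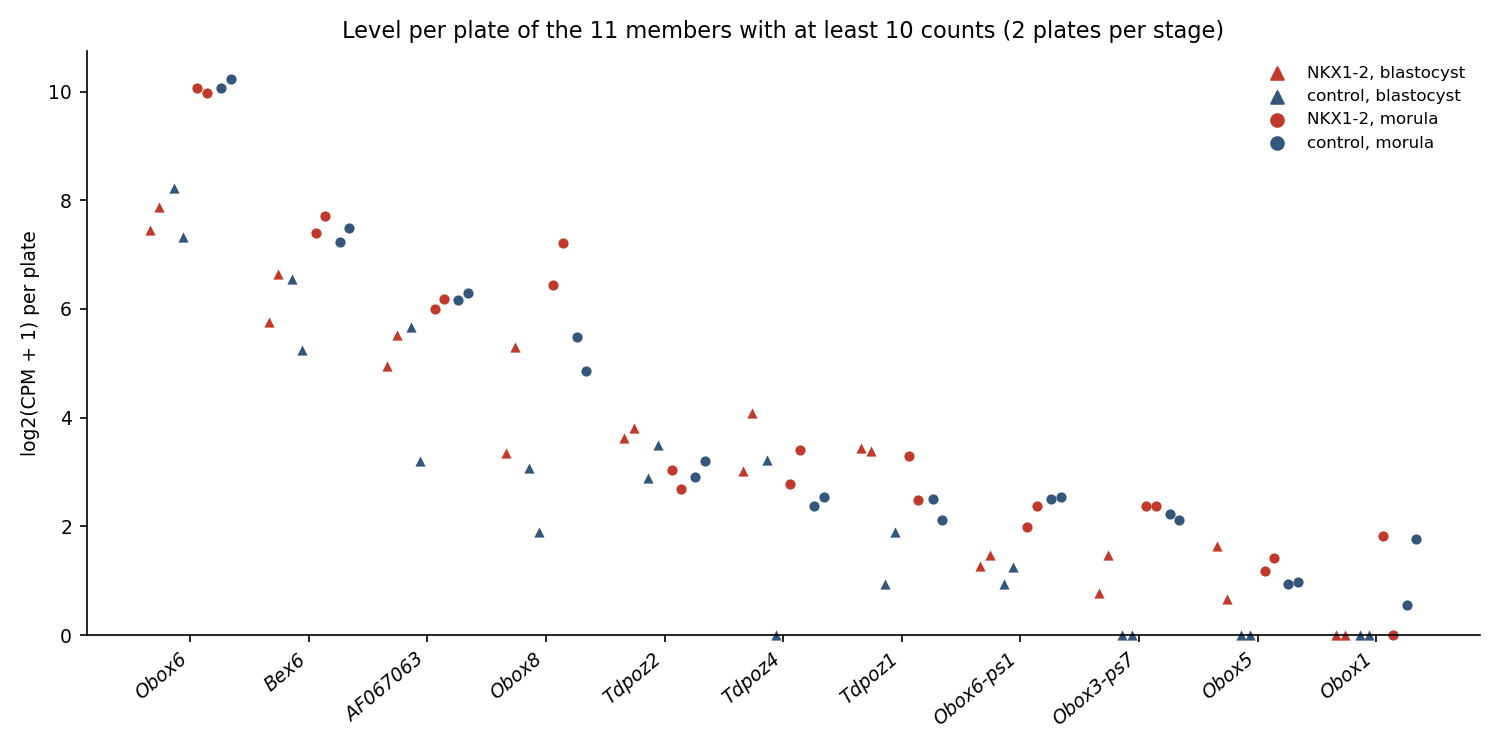
Level of the 11 described members on a log2(CPM + 1) scale, with a point for each plate, for NKX1-2 blastocyst, control blastocyst, NKX1-2 morula and control morula wells. Obox6 stood highest in all groups, and the 7 members to the right of Obox8 averaged under 13 CPM in every group.

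Obox6 was the most abundant member at both stages, and it was lower in the blastocyst than in the morula with either morpholino. Blastocyst sums had 175 and 233.8 CPM in NKX1-2 wells (mean 204.3 ± 41.6, SD, n = 2 plates) and 299.7 and 160.1 CPM in control wells (mean 229.9 ± 98.7, SD, n = 2). Morula sums had 1066 and 1002 CPM in NKX1-2 wells (mean 1034 ± 45.3, SD, n = 2) and 1068 and 1208 CPM in control wells (mean 1138 ± 99.0, SD, n = 2). The blastocyst and morula values did not overlap. Per kilobase of transcript, the mean level of Obox6 was 152.0 CPM in NKX1-2 and 171.1 CPM in control blastocyst wells, and 769.6 CPM in NKX1-2 and 846.4 CPM in control morula wells. On the same scale the next member was Bex6, at 76.7 and 65.8 CPM per kilobase in NKX1-2 and control blastocyst wells and at 190.2 and 165.5 CPM per kilobase in NKX1-2 and control morula wells.

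Every kept morula well carried Obox6, 95 of 95 with the NKX1-2 and 96 of 96 with the control morpholino, and the lowest morula well had 278 CPM. In the blastocyst, 84 of 91 NKX1-2 wells (92.3%, 95% exact interval 84.8% to 96.9%) and 78 of 86 control wells (90.7%, 82.5% to 95.9%) carried it. Intervals here and below treat the wells of both plates as independent, cover counting error only and do not compare groups. Blastocyst wells were shallower, so each well was also thinned to 5000 counts. Then 49.5% of NKX1-2 and 59.3% of control blastocyst wells carried Obox6, against 100% of morula wells with either morpholino. Across wells, NKX1-2 blastocyst wells ranged from 0 to 1365 CPM in replicate 1 (median 115) and to 847 CPM in replicate 2 (median 161), and control blastocyst wells from 0 to 938 CPM in replicate 1 (median 193) and to 712 CPM in replicate 2 (median 116). Medians in morula wells were 1054 and 1020.5 CPM with the NKX1-2 and 1088 and 1227 CPM with the control morpholino. The highest NKX1-2 well of blastocyst replicate 1 lay above all 4 morula medians, and the highest well of each other blastocyst sum lay below them.

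**Figure D2:**
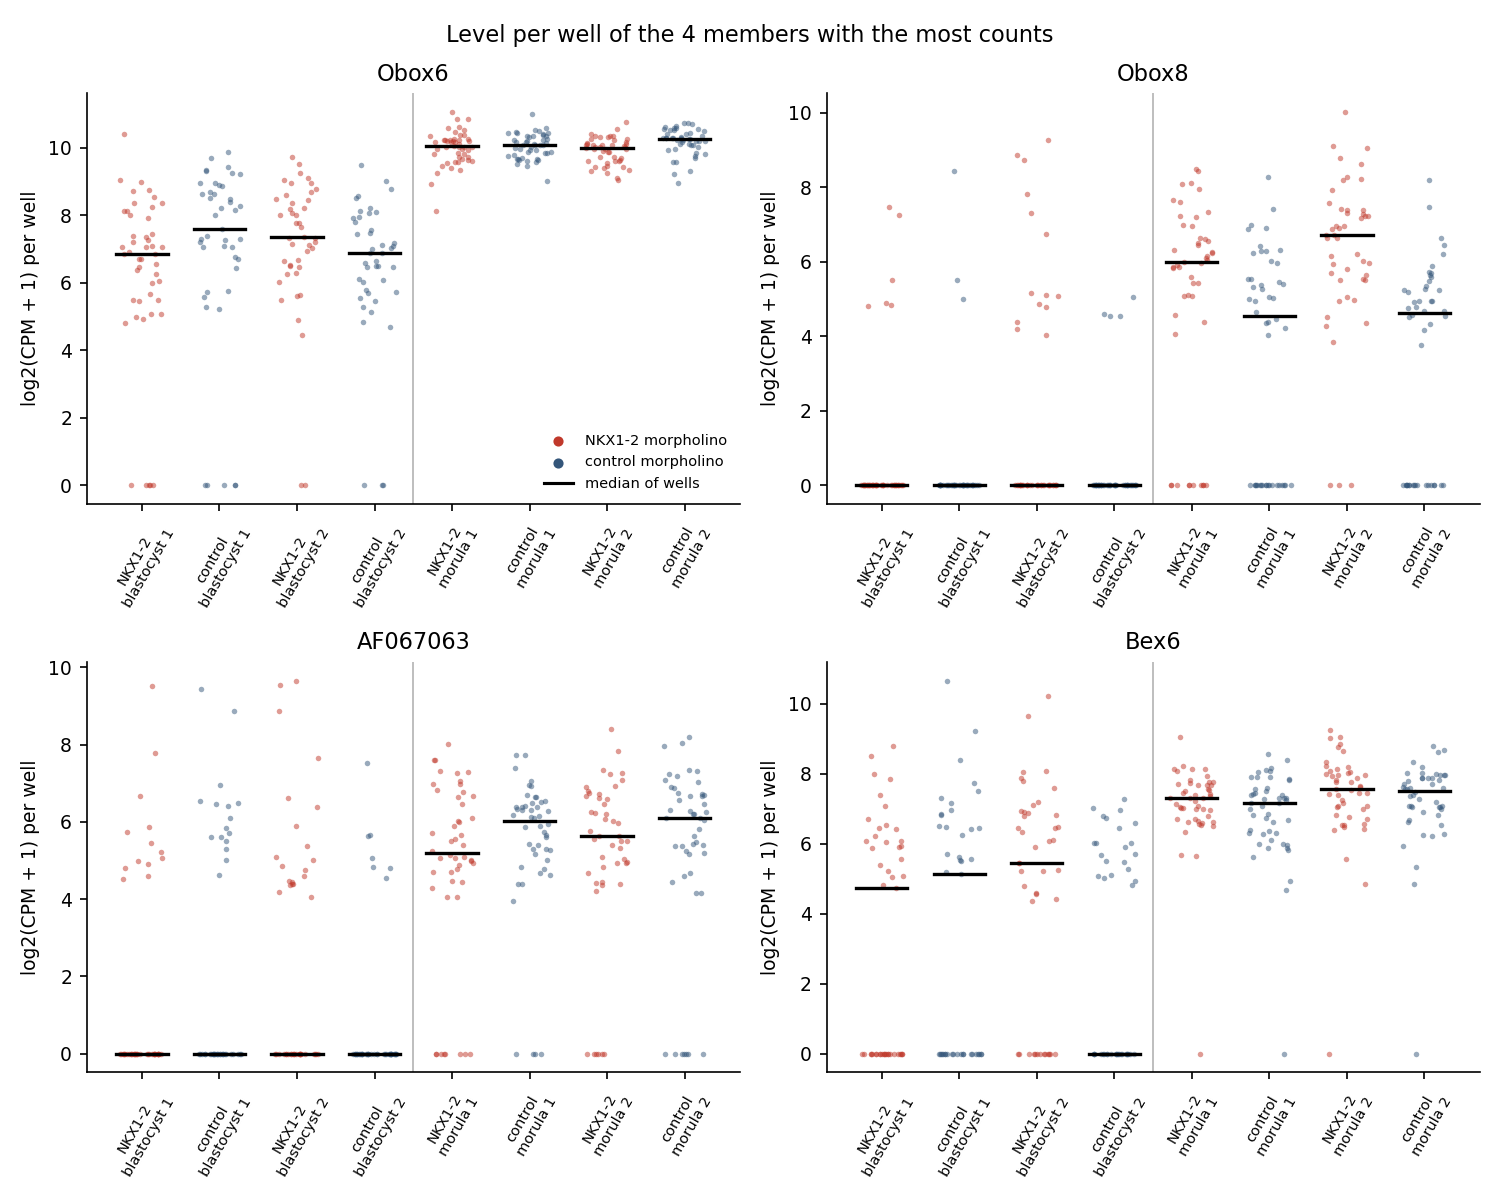
Level per well on a log2(CPM + 1) scale of Obox6, Obox8, AF067063 and Bex6, with a dot for each kept well and a black line for the median of the wells of that plate and morpholino. Blastocyst medians of AF067063 and Obox8 were 0 in all 4 sums, while single wells stood far above them, up to 807 CPM of AF067063 and 612 CPM of Obox8.

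Obox8, a protein-coding homeobox gene at chr7:14331436-14333557 on the minus strand, was higher with the NKX1-2 than with the control morpholino in each of the 4 plates. Blastocyst replicate 1 had 13 counts (9.21 CPM) in NKX1-2 and 8 counts (7.38 CPM) in control wells. Blastocyst replicate 2 had 65 counts (38.6 CPM) in NKX1-2 and 4 counts (2.74 CPM) in control wells. Morula replicate 1 had 203 counts (85.6 CPM) in NKX1-2 and 95 counts (44.0 CPM) in control wells, and morula replicate 2 had 352 counts (146.8 CPM) in NKX1-2 and 58 counts (27.9 CPM) in control wells. NKX1-2 and control values did not overlap within either stage. With 2 sums per group such a gap is a description and no test, for Obox8 and for the members below. The share of all genes with such a gap was not counted. The ratio of CPM was 1.25 and 14.1 in the blastocyst and 1.94 and 5.27 in the morula plates, so its size differed widely between plates of a stage. Without the single highest well of each sum the ratios were 3.09 and 14.2 in the blastocyst and 2.05 and 5.96 in the morula. These blastocyst ratios rest on few control counts, as the highest well held 6 of 8 in replicate 1 and 1 of 4 in replicate 2. In NKX1-2 wells of replicate 1 the highest well held 5 of 13.

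The higher Obox8 level was spread over many morula wells. Of morula wells, 82 of 95 carried Obox8 with the NKX1-2 (86.3%, 77.7% to 92.5%) and 59 of 96 with the control morpholino (61.5%, 51.0% to 71.2%). Per plate these were 38 of 48 and 44 of 47 NKX1-2 wells, and 29 of 48 and 30 of 48 control wells. After thinning to 5000 counts the shares over both plates were 32.6% of NKX1-2 and 11.5% of control morula wells. Median levels of morula wells were 62.1 and 104.1 CPM with the NKX1-2 and 22.4 and 23.7 CPM with the control morpholino. At least 10 Obox8 counts were found in 8 of 48 and 9 of 47 NKX1-2 morula wells and in 2 of 48 and 1 of 48 control morula wells. In the blastocyst, 20 of 91 NKX1-2 wells (22%, 14.0% to 31.9%) and 7 of 86 control wells (8.14%, 3.34% to 16.1%) carried it, and after thinning 9.89% of NKX1-2 and 2.33% of control wells.

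The wells of the 2 morpholinos differed in the sex chromosome transcripts they carried, and Obox8 was therefore also taken within such classes. Wells with Xist and no count of Eif2s3y, Ddx3y or Kdm5d were 10 of 48 NKX1-2 and 25 of 48 control wells of morula replicate 1, and 23 of 47 NKX1-2 and 27 of 48 control wells of morula replicate 2. In these Xist-only morula wells Obox8 had 76.5 and 108.8 CPM with the NKX1-2 and 56.5 and 31.5 CPM with the control morpholino. In morula wells with a Y-linked count and no Xist it had 101.1 and 190.4 CPM with the NKX1-2 and 28.6 and 9.21 CPM with the control morpholino. The NKX1-2 values were higher within both classes in both morula plates. The Xist-only wells of blastocyst replicate 1 went the other way, at 6.64 CPM in 35 NKX1-2 and 16.0 CPM in 15 control wells, on 7 counts each. Blastocyst wells with a Y-linked count and no Xist were 4 and 2 with the NKX1-2 and 14 and 16 with the control morpholino. The part of these classes in the Obox8 levels was not tested.

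The morpholinos were compared by a quasi-likelihood fit of all 8 sums (edgeR) with the plate as a block and Benjamini-Hochberg adjustment over 10873 genes, of which 7 were members. The 7 were Obox6, Obox8, Bex6, AF067063 and Tdpoz1, Tdpoz2 and Tdpoz4. The other 4 described members, Obox6-ps1, Obox3-ps7, Obox5 and Obox1, were too low to be tested. No member passed an adjusted p of 0.05 in the blastocyst, where 0.727% of all genes did, or in the morula, where 0.552% did, or on the average of both stages, where 2.9% did (1.56% higher and 1.33% lower). At an unadjusted p under 0.05 there were 1, 1 and 2 of 7 members in these comparisons (14.3%, 14.3% and 28.6%), beside 13.7%, 10.7% and 16.6% of all genes. DESeq2 called 0 members in each, and Tdpoz1, Tdpoz2 and Tdpoz4 had no adjusted p there, so 3 of the 7 could not be called. For the difference of the morpholino effect between the stages 0 of 7 passed, at a background of 0.0184% (0.0092% higher and 0.0092% lower), with 0 at an unadjusted p under 0.05. Members' median log2 fold changes, NKX1-2 over control, were 0.55 in the blastocyst, 0.18 in the morula and 0.23 on average, beside medians of 0.00, 0.00 and -0.01 over all genes tested.

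Of the 7 members Obox8 had the largest log2 fold change in each stage and on average. Its log2 fold change, NKX1-2 over control, was 2.34 in the blastocyst (SE 1.03, edgeR adjusted p = 0.432), 1.64 in the morula (SE 0.51, adjusted p = 0.369) and 1.99 on average (SE 0.56, adjusted p = 0.195). The difference of its effect between stages did not pass (0.70, SE 1.22, adjusted p = 0.964). In a fit of the plates of a stage alone, which was chosen after seeing the data, Obox8 passed in the blastocyst (2.16, SE 0.51, adjusted p = 0.00368) and in the morula (1.65, SE 0.15, adjusted p = 2.49e-23). Such fits called 0.775% of all genes higher and 0.714% lower in the blastocyst, and 4.55% higher and 3.49% lower in the morula. That morula SE is smaller than the gap between the log2 ratios of the 2 morula plates, 0.94 and 2.32. In edgeR without a filter on low counts Obox8 passed as well, with adjusted p = 0.00260 in the blastocyst, 7.12e-06 in the morula and 1.78e-07 on average. Over all alternatives for it the log2 fold change ranged from 0.25 to 3.81 in the blastocyst, where 5 of 13 alternatives passed, and from 0.98 to 2.37 in the morula, where 6 of 13 passed. Single plates decided the size: without blastocyst replicate 1 the blastocyst value was 3.81 (adjusted p = 3.02e-10) and without blastocyst replicate 2 it was 0.25 (adjusted p = 0.915). The morula value was 2.37 without morula replicate 1 (adjusted p = 1.28e-05) and 0.98 without morula replicate 2 (adjusted p = 0.879). With a plate left out its stage has 1 plate, which is assumed to vary like the plates of the other stage, so such a p holds no spread between plates of that stage.

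**Figure D3:**
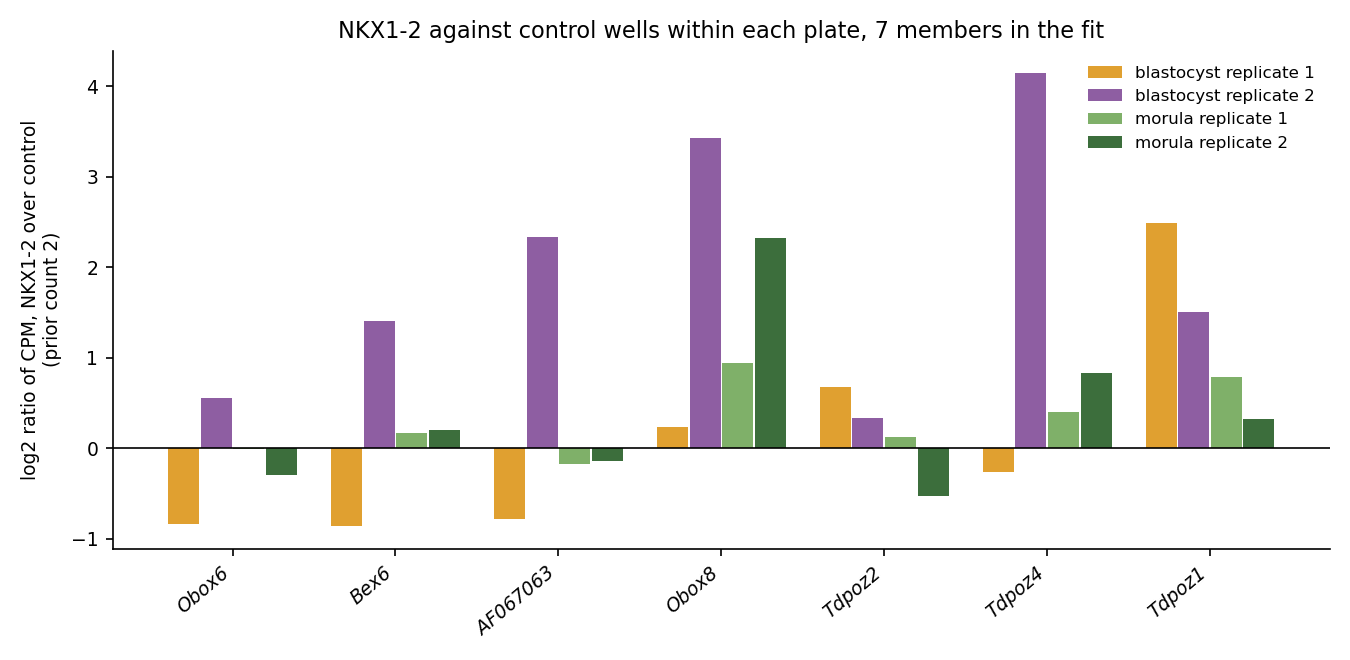
Log2 ratio of CPM, NKX1-2 over control wells, within each of the 4 plates for the 7 members in the fit, computed with a prior count of 2, which shrinks ratios at low counts. Obox8 and Tdpoz1 were above 0 in all 4 plates, while Obox6, Bex6, AF067063 and Tdpoz4 were below 0 in blastocyst replicate 1 and above 0 in blastocyst replicate 2.

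Obox6 did not follow Obox8. Its log2 fold change, NKX1-2 over control, was -0.14 in the blastocyst (SE 0.39, edgeR adjusted p = 0.928) and -0.15 in the morula (SE 0.34, adjusted p = 0.946). In morula replicate 1 the ratio of NKX1-2 to control CPM was 0.999. The blastocyst plates went opposite ways, with ratios of 0.584 in replicate 1 and 1.46 in replicate 2. Without blastocyst replicate 1 the fold change was 0.56 and passed (adjusted p = 0.00459), and without blastocyst replicate 2 it was -0.84 and passed (adjusted p = 7.10e-07).

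Bex6, at chr16:32179823-32186972 on the plus strand, was the second most abundant member. Its blastocyst sums had 53.1 and 98.5 CPM in NKX1-2 wells and 93.1 and 37.0 CPM in control wells, and its morula sums had 167.3 and 208.5 CPM in NKX1-2 wells and 148.8 and 178.2 CPM in control wells. The morpholino groups overlapped at both stages, and the blastocyst values lay below the morula values. The log2 fold change, NKX1-2 over control, was 0.28 in the blastocyst (SE 0.64, edgeR adjusted p = 0.907) and 0.18 in the morula (SE 0.51, adjusted p = 0.957). In the blastocyst 55 of 91 NKX1-2 wells (60.4%) and 43 of 86 control wells (50%) carried Bex6, and 93 of 95 NKX1-2 wells (97.9%) and 94 of 96 control wells (97.9%) did so in the morula. After thinning the shares were 19.8% and 18.6% in NKX1-2 and control blastocyst wells, and 61.1% and 50% in NKX1-2 and control morula wells. Its blastocyst counts were concentrated, and the 5 highest wells held 53.3% and 50% of them in NKX1-2 sums and 65.3% and 46.3% in control sums.

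AF067063, at chr13:119827961-119830216 on the minus strand, was nearly the same with either morpholino in the morula and scattered in the blastocyst. Morula sums had 62.8 and 71.3 CPM in NKX1-2 wells and 70.9 and 77.3 CPM in control wells. Blastocyst sums had 29.7 and 45.1 CPM in NKX1-2 wells and 49.8 and 8.21 CPM in control wells. The groups overlapped at both stages. Log2 fold changes, NKX1-2 over control, were 0.55 in the blastocyst (SE 0.85, edgeR adjusted p = 0.851) and -0.16 in the morula (SE 0.61, adjusted p = 0.973). In the blastocyst 33 of 91 NKX1-2 wells (36.3%, 26.4% to 47.0%) and 23 of 86 control wells (26.7%, 17.8% to 37.4%) carried it, and in the morula 81 of 95 NKX1-2 wells (85.3%) and 85 of 96 control wells (88.5%). Summed with Gm21731, its levels were 41.1 and 110.4 CPM in NKX1-2 and 86.7 and 8.90 CPM in control blastocyst wells, and 80.5 and 90.1 CPM in NKX1-2 and 96.4 and 107.6 CPM in control morula wells.

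**Figure D4:**
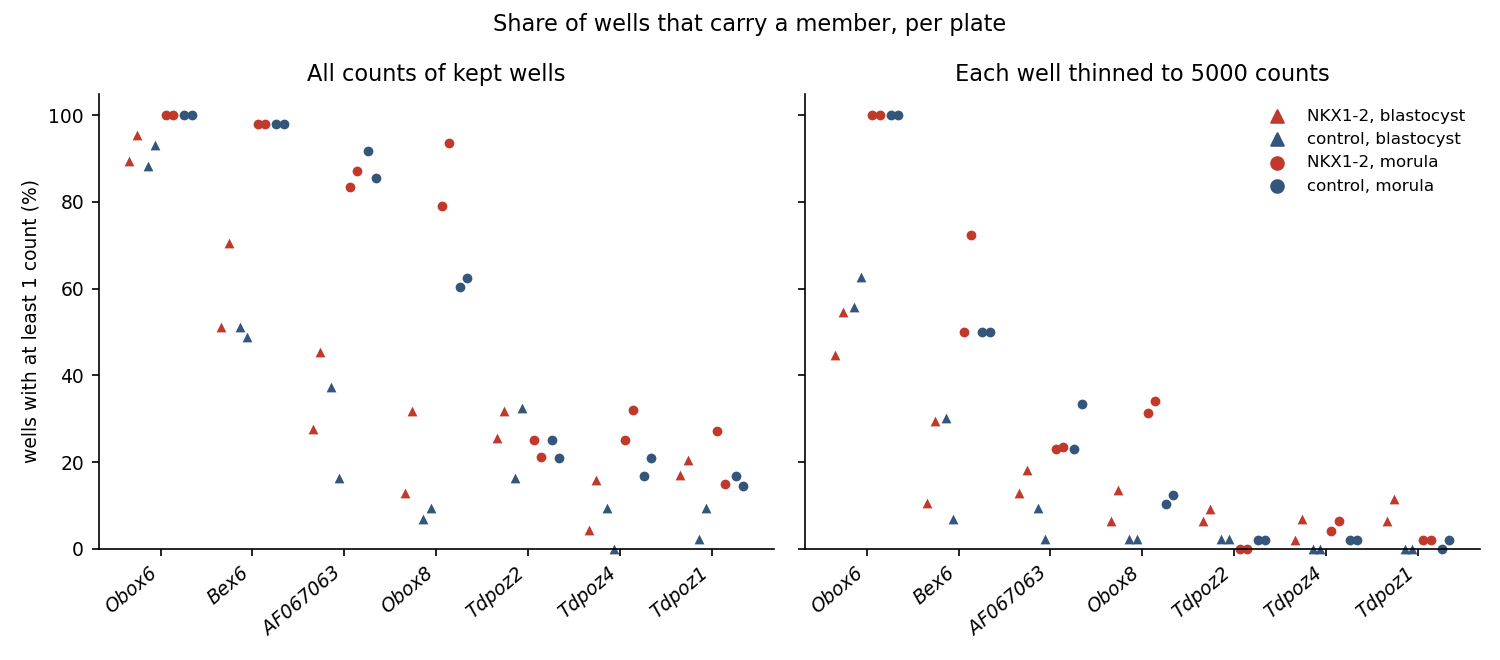
Percent of wells that carry at least 1 count of each of the 7 tested members, with a point for each plate, from all counts (left) and after thinning each well to 5000 counts (right), for NKX1-2 blastocyst, control blastocyst, NKX1-2 morula and control morula wells. Obox6 stayed at 100% in morula wells after thinning, while Obox8 was at 32.6% in NKX1-2 and 11.5% in control morula wells.

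The 3 described Tdpoz genes were low in every group, at 13.1 CPM or less in every sum but 1. Tdpoz1 was higher with the NKX1-2 than with the control morpholino in all 4 plates. It had 14 and 16 counts (9.91 and 9.49 CPM) in NKX1-2 and 1 and 4 counts (0.922 and 2.74 CPM) in control blastocyst wells, and 21 and 11 counts (8.85 and 4.59 CPM) in NKX1-2 and 10 and 7 counts (4.64 and 3.36 CPM) in control morula wells. Blastocyst groups did not overlap, and morula groups did. Its log2 fold change, NKX1-2 over control, was 2.27 in the blastocyst (SE 0.64, edgeR adjusted p = 0.120), 0.71 in the morula (SE 0.49, adjusted p = 0.676) and 1.49 on average (SE 0.41, adjusted p = 0.0585). Summed with Gm9117 and Gm9125, a choice made after seeing the data, it passed in the blastocyst (2.70, adjusted p = 0.0468) and on average (1.71, adjusted p = 0.0230). Without a filter on low counts it passed on average (1.505, adjusted p = 0.0298). In all, 1 of 13 alternatives passed in the blastocyst, with log2 fold changes of 1.67 to 3.29, and 3 of 12 on average, with 1.19 to 2.00. The lowest values came with every well kept, at 1.67 in the blastocyst (adjusted p = 0.200) and 1.19 on average (adjusted p = 0.103). In the blastocyst 17 of 91 NKX1-2 wells (18.7%, 11.3% to 28.2%) and 5 of 86 control wells (5.81%, 1.91% to 13.0%) carried Tdpoz1.

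Tdpoz4 had 10 and 27 counts (7.08 and 16.0 CPM) in NKX1-2 and 9 and 0 counts in control blastocyst wells, where 9 counts were 8.30 CPM and 0 counts allow up to 2.05 CPM. In the morula it had 14 and 23 counts (5.90 and 9.59 CPM) in NKX1-2 and 9 and 10 counts (4.17 and 4.8 CPM) in control wells. The blastocyst groups overlapped and the morula groups did not. Its blastocyst counts came from few wells, 9 of 91 NKX1-2 and 4 of 86 control wells, and from 27 of 95 NKX1-2 and 18 of 96 control wells in the morula. The log2 fold change, NKX1-2 over control, was 1.67 in the blastocyst (SE 0.98, edgeR adjusted p = 0.513) and 0.75 in the morula (SE 0.83, adjusted p = 0.840).

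Tdpoz2 had 11.3 and 13.1 CPM in NKX1-2 and 6.46 and 10.3 CPM in control blastocyst wells, and 7.17 and 5.42 CPM in NKX1-2 and 6.49 and 8.17 CPM in control morula wells. The morpholino groups did not overlap in the blastocyst and overlapped in the morula. Log2 fold changes, NKX1-2 over control, were 0.51 in the blastocyst (SE 0.43, edgeR adjusted p = 0.661) and -0.23 in the morula (SE 0.42, adjusted p = 0.915). It was carried by like shares of wells at both stages, by 28.6% of NKX1-2 and 24.4% of control blastocyst wells and 23.2% of NKX1-2 and 22.9% of control morula wells.

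The remaining 4 described members are Obox rows with 12 to 45 counts, and 3 of the 4 had 0 counts in both control blastocyst sums. Obox6-ps1, a processed pseudogene, had 2 and 3 counts in NKX1-2 and 1 and 2 in control blastocyst wells, and 7 and 10 in NKX1-2 and 10 and 10 in control morula wells. Obox3-ps7, an unprocessed pseudogene, had 1 and 3 counts in NKX1-2 and 0 and 0 in control blastocyst wells, and 10 and 10 in NKX1-2 and 8 and 7 in control morula wells. Obox5 had 3 and 1 counts in NKX1-2 and 0 and 0 in control blastocyst wells, and 3 and 4 in NKX1-2 and 2 and 2 in control morula wells. Obox1 had no blastocyst count, and in the morula 6 and 0 counts in NKX1-2 and 1 and 5 counts in control wells. These rows did not pass the filter on low counts with all plates, so their counts are given as a description.

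The stages were compared in separate edgeR fits of the 4 NKX1-2 sums and the 4 control sums. Each stage had its own 2 plates, so stage and plate cannot be told apart beyond the spread of 2 plates. Where a plate is left out below, its stage has 1 sum and the p rests on the spread of the other stage's 2 sums alone. In NKX1-2 wells 2 of 7 tested members were lower and 1 was higher in the blastocyst, at a background of 45.9% of genes called (24% lower and 21.9% higher). In control wells 3 of 5 tested members were lower and 0 higher, at a background of 41.7% (21.6% lower and 20.1% higher). The members' median log2 fold change, blastocyst over morula, was -0.55 in NKX1-2 and -1.13 in control wells, beside -0.02 and -0.01 over all genes tested. All 4 described members over 20 CPM in morula wells with either morpholino had lower blastocyst means, and that minimum favours members high in the morula.

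Obox6 fell in the blastocyst with either morpholino. Its log2 fold change, blastocyst over morula, was -2.05 in NKX1-2 wells (SE 0.15, edgeR adjusted p = 4.48e-09) and -2.01 in control wells (SE 0.24, adjusted p = 2.12e-05), and it passed under all 12 alternatives in each. Bex6 fell by about the same factor with either morpholino, with -1.01 in NKX1-2 wells (SE 0.24, adjusted p = 0.00310) and -1.06 in control wells (SE 0.33, adjusted p = 0.0193). In control wells Bex6 did not pass with DESeq2 (-1.02, adjusted p = 0.259) or without blastocyst replicate 2 (-0.47, adjusted p = 0.120), and in NKX1-2 wells it did not pass without blastocyst replicate 1 (-0.63, adjusted p = 0.0974).

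Obox8 fell in the blastocyst in control wells (log2 fold change -2.59, SE 0.47, edgeR adjusted p = 0.000108), and under all 12 alternatives there. In NKX1-2 wells its value was -1.95 (SE 0.63, adjusted p = 0.0626), which passed in 3 of 12 alternatives, one of them without blastocyst replicate 2 (-3.39, adjusted p = 0.00867). AF067063 was at -0.55 in NKX1-2 wells (SE 0.25, adjusted p = 0.0789) and -1.13 in control wells (SE 0.70, adjusted p = 0.266). Without blastocyst replicate 1 its control value was -2.89 (adjusted p = 2.74e-11), and without blastocyst replicate 2 it was -0.23 (adjusted p = 0.578). Summed with Gm21731 its NKX1-2 value was 0.13 (adjusted p = 0.814), with the sign turned.

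Tdpoz2 went the other way in NKX1-2 wells, where it rose in the blastocyst (log2 fold change 1.23, SE 0.42, edgeR adjusted p = 0.0228). The call was lost with DESeq2 (1.25, adjusted p = 0.164), without a filter on low counts (1.12, adjusted p = 0.0576), summed with its copies Gm5773 and Gm9141 (0.95, adjusted p = 0.0581), and without either blastocyst plate or morula replicate 2 (1.03 to 1.35, adjusted p = 0.0800, 0.130 and 0.134). In control wells it was at 0.52 (SE 0.48, adjusted p = 0.408). Tdpoz1 and Tdpoz4 were tested in NKX1-2 wells alone, at 0.81 (SE 0.45, adjusted p = 0.155) and 0.88 (SE 0.46, adjusted p = 0.127).

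In blastocyst plates the counts of AF067063 were concentrated in few wells, and some of these wells also held much of the other members' counts. A minimum of 10 AF067063 counts, chosen after the values were seen, was reached by 1 of 47 NKX1-2 and 2 of 43 control wells of blastocyst replicate 1 and by 3 of 44 NKX1-2 and 0 of 43 control wells of blastocyst replicate 2. These are 6 wells of 177 kept blastocyst wells, picked by their counts, so they are described and not tested. In the morula the same minimum was reached by 2 of 48 and 4 of 47 NKX1-2 and 2 of 48 and 3 of 48 control wells.

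The 3 NKX1-2 wells of blastocyst replicate 2 held 4.26% of all counts of that sum. They held 49 of its 76 AF067063 counts (64.5%), 22 of 27 Tdpoz4 counts (81.5%), 30 of 65 Obox8 counts (46.2%) and 57 of 166 Bex6 counts (34.3%). Of Obox6 they held 43 of 394 counts (10.9%), and of Tdpoz2 0 of 22. They also held 103 of 110 Gm21731 counts (93.6%) and 108 of 118 counts of Tcstv3 (91.5%), a gene known from mouse 2-cell embryos. Tcstv3 was chosen after its values were seen, and 1.29% of the sequence stretches of AF067063 occurred in it. The part of that shared sequence in the Tcstv3 counts was not tested. Of Sp110, which is on the same list of 2-cell genes described below, the 3 wells held 61 of 525 counts (11.6%). Of Gata3, a trophectoderm transcription factor, they held 0 of 126 counts, and of Nanog, an inner cell mass gene, 6 of 144 (4.17%). No other listed trophectoderm or inner cell mass marker was counted in these wells, so no cell type is assigned to them.

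The 2 control wells of blastocyst replicate 1 held 4.55% of all counts of their sum and 27 of 54 AF067063 counts (50%), 47 of 101 Bex6 counts (46.5%), 6 of 8 Obox8 counts (75%) and 27 of 40 Gm21731 counts (67.5%). The single NKX1-2 well of that plate held 2.33% of all counts, 24 of 42 AF067063 counts (57.1%), 45 of 247 Obox6 counts (18.2%) and 0 of 5 Tcstv3 counts. The wells differed among themselves. In blastocyst replicate 2 the well with the most AF067063, 21 counts, had 34 Bex6, 12 Obox8 and 59 Tcstv3 counts. The next, with 18 counts of AF067063, had 6 Bex6, 5 Obox8 and 10 Tcstv3 counts, and 35 counts of Gm4858, a copy related to Tdpoz4. The part of these wells in the blastocyst levels of AF067063, Obox8 and Tdpoz4 was not tested.

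**Figure D5:**
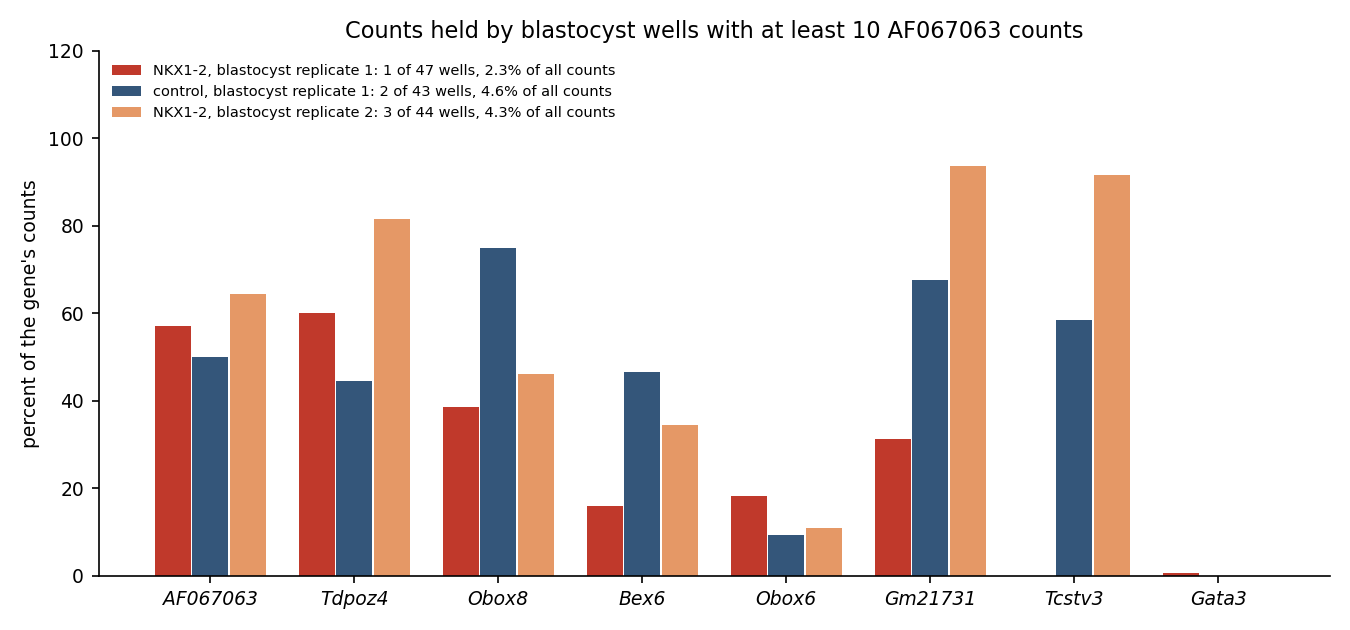
Percent of each gene's counts in a blastocyst sum that were held by wells with at least 10 AF067063 counts, for the 3 sums that had such wells. In NKX1-2 wells of replicate 2 these 3 wells held 81.5% of the Tdpoz4 counts, but 4.26% of all counts and no Gata3 count. Gata3 was the only trophectoderm marker counted in these wells. The AF067063 bars follow from how the wells were picked, and Gm21731 shares most of its sequence with AF067063.

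Most wells carried several members at once in the morula and few in the blastocyst. The median well had 2 and 3 of the 11 described members in NKX1-2 and 2 and 2 in control blastocyst sums, and 5 and 5 in NKX1-2 and 5 and 4 in control morula sums. At least 1 member was found in 97.8% of all kept wells, and after thinning in 82.6%. Wells with no described member were 4 and 1 NKX1-2 and 2 and 1 control wells of the blastocyst plates, and 0 in the morula. Obox6 and Bex6 levels had a Spearman correlation across wells of 0.72 over 91 NKX1-2 and 0.43 over 86 control blastocyst wells, and of 0.15 over 95 NKX1-2 and 0.28 over 96 control morula wells. Wells of a group come from 2 plates and differ in depth, so these are descriptions. Of the 84 NKX1-2 blastocyst wells with Obox6, 64.3% carried Bex6, and their median depth was 33199.5 counts, against 14.3% of the 7 wells without Obox6, at 28557 counts. Of the 78 control blastocyst wells with Obox6, 51.3% carried Bex6, at a median depth of 29550.5 counts, against 37.5% of the 8 wells without Obox6, at 23784.5 counts.

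Other genes of the 2-cell embryo and of the oocyte were taken from 2 lists chosen with earlier results known. Of 30 listed 2-cell and genome activation genes 15 were tested for the morpholino. On average over stages 1 was higher and 0 lower, Sp110, a nuclear body protein, with a log2 fold change, NKX1-2 over control, of 0.62 (SE 0.13, edgeR adjusted p = 0.0273), and 0 passed in either stage or for the difference between stages. Of all genes 1.56% were higher and 1.33% lower on that average. Between stages 1 was higher and 3 lower of 13 in NKX1-2 wells, and 1 higher and 2 lower of 13 in control wells. Of all genes 21.9% were higher and 24% lower in NKX1-2 wells, and 20.1% higher and 21.6% lower in control wells. Gm5662 was the higher one (1.36 in NKX1-2 and 1.86 in control wells), and Tmem92 was lower with either morpholino (-2.68 in NKX1-2 and -1.33 in control wells). The others that were lower were Nelfa (-0.88) and Spz1 (-1.25) in NKX1-2 wells and Dppa4 (-0.47) in control wells.

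Of 25 oocyte genes 12 were tested for the morpholino, and on average 1 was higher, Omt2b (1.37, SE 0.27, edgeR adjusted p = 0.0125), and 0 were lower. The shares of all genes on that average were 1.56% higher and 1.33% lower. In the blastocyst relative to the morula 2 oocyte genes were higher and 7 lower, of 13 tested in NKX1-2 and 10 in control wells. Beside them 21.9% of all genes were higher and 24% lower in NKX1-2 wells, and 20.1% higher and 21.6% lower in control wells. Khdc3 (0.80 in NKX1-2 and 0.92 in control wells) and Ooep (2.24 in NKX1-2 and 2.01 in control wells), both of the subcortical maternal complex, were the higher ones. Among the lower ones in NKX1-2 wells were Npm2 (-2.14), a histone chaperone of the egg, and Padi6 (-1.32), which is needed for the cytoplasmic lattices of the egg. In control wells Oog3 (-3.64), Omt2a (-2.28) and Omt2b (-2.21) were among them. Obox6 and Obox8 lay on the side of the lower oocyte genes in these comparisons, though Obox8 did not pass in NKX1-2 wells. That likeness was not tested.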

How the data were processed

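The authors deposited whole-number counts per gene and well barcode, without normalization, and a table of the morpholino of each of the 96 barcodes of a plate. Per the submitters' processing notes, TopHat2, GRCm38 and mm10 were used, with no role or version stated. Per the labels' protocols, RNA was captured by polyA and made into TruSeq libraries, and the sample descriptions also mention 10x Genomics. The sources used here do not give the counter, its strand setting or whether it counted molecules.

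Wells under 2000 detected genes were left out (16 of 384). Summing was done over the other wells of each plate and morpholino, since wells of a plate are not independent replicates. In morpholino fits, where the plate is a block, p-values thus measure how the NKX1-2 to control difference varied between plates. In stage fits they measure the spread between plates of a stage. Either spread may be technical. In the morula plates 344 neighbouring rows have no count. They hold no member and were left out of fits with morula wells. The models were robust quasi-likelihood fits (edgeR 4.0.16, limma 3.58.1, R 4.3.3) with TMM scaling, filterByExpr and Benjamini-Hochberg adjustment over all genes tested, and were tested on simulated data. Morpholino fits had the plate as a block, since its wells share it. Deviations of the 2 sums of a plate from their group means had a correlation of 0.257 (morula) and -0.000704 (blastocyst). The SE is the log2 fold change over the square root of F. Thinning drew 5000 counts per well with a fixed seed. Transcripts of GENCODE M21 gave positions and shared 31-base stretches, and all 71 members matched by symbol. DESeq2 1.42.0, Python 3.11.15, numpy 2.4.6, scipy 1.17.1, pandas 2.3.3 and matplotlib 3.10.9 were also used.

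Every row that matched the name rule was a member, and those with at least 10 counts are named. From the lists, up to 4 passing genes per comparison are named, by smallest p. Genes that share sequence or counts with a member (the Gm genes and Tcstv3) were chosen after their values were seen. The members and lists were chosen with earlier results of these data known.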

Additional observations from a re-analysis of the deposited data

How the results depend on the processing

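Alternatives were RLE size factors, DESeq2, low counts left in, all wells left in, a minimum of 4000 genes per well, no replicate block or a replicate block, the highest well left out, each plate left out, and, chosen after seeing the data, the plates of a stage alone and sums with genes that share sequence. Over these, 309 member values kept their direction and their side of the threshold, 16 newly passed, 4 no longer passed and 5 turned direction. With a plate left out the same counts were 111, 27, 5 and 17.

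Against 0 members called in the morula, 1 was called without a filter on low counts, where 0.364% of all genes were higher and 0.245% lower. Wells of at least 4000 genes gave 1, beside 0.37% higher and 0.333% lower, and the morula plates alone gave 1, beside 4.55% and 3.49%. Against 0 in the blastocyst, 1 was called without a filter, beside 0.562% of all genes higher and 0.303% lower. The blastocyst plates alone gave 1, beside 0.775% and 0.714%, and summed copies gave 1, beside 0.405% and 0.34%. With all plates 0.386% of genes were higher and 0.34% lower. The members' median log2 fold change was 1.61 without blastocyst replicate 1 and -0.0184 without blastocyst replicate 2, against 0.55 with all plates. With either plate left out the median is over 8 tested members and with all plates over 7, so the sets differ. On average over stages 2 were called without a filter, beside 1.05% of all genes higher and 0.76% lower. Wells of at least 4000 genes gave 1, beside 1.56% and 1.41%, and summed copies gave 1, beside 1.64% and 1.35%. For the difference between stages 0 members were called in alternatives that kept all 4 plates. Calls with a plate left out are not counted in this paragraph, since the stage of that plate then has 1 plate. Values that newly passed in such fits are counted in the paragraph before. Against 3 members between stages in control wells, 5 were called without a filter, beside 6.76% of all genes higher and 10.1% lower. DESeq2 gave 2, beside 12.8% and 13.4%. In NKX1-2 wells, against 1 higher and 2 lower, 0 higher and 4 lower were called without a filter, beside 7.85% and 11.6% of genes. DESeq2 gave 0 higher and 2 lower there, beside 14.1% and 15.3%. The replicate numbers do not pair the stages (correlations of -0.00201 in NKX1-2 and 0.0251 in control wells). With the replicate block 5 members were called in NKX1-2 wells, 1 higher and 4 lower, beside 22% and 24.3% of all genes. Without the plate as a replicate block the morpholino counts stayed at 0. The cause was not tested.

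The share of wells carrying a member was 97.8%, 82.6% after thinning, 94.3% at a minimum of 2 counts and 95.8% of every well, and 97.1% to 99.3% with a plate left out.

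Turned values were, between stages in NKX1-2 wells, AF067063 at 0.13 summed with its copy. For the difference between stages they were Bex6 at -0.0734 without the highest well, and Obox6 at -0.0028 with DESeq2, -0.0290 with no replicate block and -0.0135 with wells of at least 4000 genes. With a plate left out, log2 fold changes of the morpholino that turned direction ranged as follows. In the blastocyst AF067063 ranged from -0.81 to 2.47, Bex6 from -0.87 to 1.43, Obox6 from -0.84 to 0.56 and Tdpoz4 from -0.29 to 8.25. In the morula Obox6 ranged from -0.29 to 0.0226 and Tdpoz2 from -0.60 to 0.17. On average AF067063 ranged from -0.48 to 1.15, Bex6 from -0.35 to 0.81, Obox6 from -0.50 to 0.21 and Tdpoz2 from -0.0406 to 0.34. For the difference between stages AF067063 ranged from -0.64 to 2.63, Bex6 from -1.06 to 1.25, Obox6 from -0.69 to 0.71, Obox8 from -1.39 to 2.17 and Tdpoz4 from -1.04 to 7.495.

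With 2 plates per stage, a value rests on few sums, and 7 of 11 described members had enough counts for a test. A fold change of Tdpoz4 without blastocyst replicate 1 is set against 0 counts and depends on the prior count.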

Other observations

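Of the 71 members, 10 had 1 to 9 counts over all wells. None of them was described by group. The 6 blastocyst wells with at least 10 AF067063 counts had 3836 to 5306 detected genes, where the median blastocyst well had 5246 and 5689 in NKX1-2 and 4602 and 5385 in control sums. Of Sp110 the NKX1-2 well of blastocyst replicate 1 had 0 counts, the 3 NKX1-2 wells of blastocyst replicate 2 had 37, 7 and 17 and the 2 control wells of blastocyst replicate 1 had 18 and 6.

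The copies of Tdpoz4 outside the member names had more counts than Tdpoz4 in each of the 8 sums. Tdpoz4 and its copies Gm5541 and Gm4858 had 32 and 92 counts together in NKX1-2 and 45 and 1 in control blastocyst wells, of which Tdpoz4 made 10 and 27 in NKX1-2 and 9 and 0 in control wells. In the morula the sums with the copies were 44 and 50 counts in NKX1-2 and 26 and 26 in control wells.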
